A study of Saccharomyces cerevisiae with 2 samples.

Results

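The first internal transcribed spacer (ITS1) is the stretch of the yeast 35S pre-rRNA that separates the 18S rRNA from the 5.8S rRNA. Its members here are the nucleotides between the annotated ends of both rRNAs, 209 nt before cleavage site A2, 74 nt between sites A2 and A3 and 78 nt after A3, out of 6858 nt of the 35S rRNA and 6958 positions of deposited coverage, together with the 2 count features of ITS1, 1 for each rDNA copy of the genome build, out of 7127 features. The nucleotides were chosen by position only and not by any measured value. ITS1 of copy 1 lies on the minus strand of chromosome XII at chrXII:455572-455932 (genome build sacCer3), directly after the 18S rRNA (chrXII:455933-457732) and directly before the 5.8S rRNA (chrXII:455414-455571). ITS1 of copy 2 lies at chrXII:464709-465069 and has the identical sequence, so that copies cannot be told apart by their reads.

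The study asked what the mRNA-binding protein Npl3 does in the quality control of rRNA and sequenced total RNA of Saccharomyces cerevisiae without removing rRNA. The data comprise 1 npl3∆ library, from cells in which NPL3 was deleted, and 1 wild type library. Both cultures were grown at 25 °C, and 200 ng of total RNA entered each library. There are no replicates, so that the differences below have no replicate check, no test between genotypes was made, and the intervals given beside ratios are, unless stated otherwise, 95% exact conditional binomial (Clopper-Pearson) intervals. They cover counting error only and treat each read as 1 molecule. Without molecular identifiers this cannot be checked, so that the intervals may be too narrow. The strains of the study derive from BY4741 or S288C, and which strains were sequenced is not named.

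The labels were first compared with the data. NPL3 had 3 counts in npl3∆ and 1345 counts in wild type. The libraries also differed in the genes of the mating pheromones: MF(ALPHA)1, which encodes α-factor, had 7558 counts in npl3∆ and 4 in wild type, while MFA2, which encodes a-factor, had 1 count in npl3∆ and 990 in wild type. In addition, the median log2 ratio of npl3∆ to wild type of 84 genes on chromosome I was 0.98 above that of the other chromosomes. Deletion of NPL3, the difference of mating type and that of chromosome I therefore cannot be told apart in any value below. Features other than rRNA held 6674796 counts in npl3∆ and 4799318 in wild type.

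In yeast, the spacer is removed in steps. Cleavage at site A2, attributed to Utp24, separates the precursors of the small and the large ribosomal subunit, and the 20S pre-rRNA that results keeps the first stretch of ITS1 until Nob1 cuts at site D, the 3' end of the 18S rRNA. RNase MRP cuts at site A3 further downstream, and 5'-3' exonucleases then trim the remaining stretch up to the 5.8S rRNA. When A3 is cut without prior cleavage at A0, A1 and A2, the 23S pre-rRNA arises, which is normally removed by the nuclear exosome with the help of TRAMP. The D-A2 segment is therefore present in the 35S, 23S and 20S pre-rRNAs, and the A2-A3 segment in the 35S, 23S and 27SA2 pre-rRNAs. The A3-5.8S segment is present in the 35S, 27SA2 and 27SA3 pre-rRNAs. These lists are not complete, since further intermediates exist. RNA-seq coverage is the sum over all precursors that hold a segment and over excised fragments.

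The sequences at the 4 processing sites are shown because the coverage below is described relative to them. All were read from the reference genome on the transcribed strand, as DNA letters, from 5' to 3'. At the ends of ITS1, capitals mark the mature rRNA, namely the last 20 nt of the 18S rRNA at site D and the first 20 nt of the 5.8S rRNA.
Site D (chrXII:455913-455952): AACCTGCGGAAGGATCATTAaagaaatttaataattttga
5.8S 5' end (chrXII:455552-455591): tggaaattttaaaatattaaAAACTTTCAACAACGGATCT

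At the internal sites, capitals mark the letters AACACA, which stand at both places where coverage fell most sharply in relation to its level, and each window is centred on that fall.
A2 (chrXII:455701-455740): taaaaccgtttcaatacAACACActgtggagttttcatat
A3 (chrXII:455627-455666): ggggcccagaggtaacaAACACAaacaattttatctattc

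The stretch between both falls is shown whole, as it is the part of ITS1 with the highest coverage in both libraries.
A2-A3 stretch (chrXII:455647-455720): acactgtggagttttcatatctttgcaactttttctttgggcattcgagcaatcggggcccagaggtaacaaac

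Nucleotides of ITS1 are numbered from 1, the first nucleotide after the 18S rRNA. The study lists 8 positions for each internal site, nucleotides 206 to 213 for A2 (chrXII:455720-455727) and 280 to 287 for A3 (chrXII:455646-455653), and their middles were used as limits of the segments. The D-A2 segment then has 209 nt (chrXII:455724-455932), the A2-A3 segment 74 nt (chrXII:455650-455723) and the A3-5.8S segment 78 nt (chrXII:455572-455649). The segments differ in composition: G and C make up 39.7% of D-A2, 44.6% of A2-A3 and 17.9% of A3-5.8S.

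ITS1 was more abundant in npl3∆ at the level of counts. The feature of copy 1 had 139474 counts in npl3∆ and 86647 in wild type, a ratio of 1.61 (95% interval 1.60 to 1.62). That of copy 2 had 140536 counts in npl3∆ and 89355 in wild type, a ratio of 1.57 (1.56 to 1.59). Among the parts of the 35S rRNA, this was the only ratio above that of the 5' external transcribed spacer (5' ETS), which was 1.34 (1.33 to 1.35), whereas the second internal spacer, ITS2, had 1.05 (1.04 to 1.06) and the 18S, 5.8S and 25S rRNAs had 0.898, 0.712 and 0.974.

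Set against its neighbours within the same library, ITS1 took a larger place in npl3∆. For every 100 counts of the 5.8S rRNA there were 48.4 counts of ITS1 in npl3∆ and 21.6 in wild type. ITS1 counts amounted to 0.449% of the 18S rRNA counts in npl3∆ and 0.253% in wild type. Against the 5' ETS the shift was smaller, with 97.7% in npl3∆ and 82.5% in wild type, and against ITS2 it was 133% in npl3∆ and 88.0% in wild type. The order of both internal spacers thus differed between the libraries, with ITS1 above ITS2 in npl3∆ and below it in wild type.

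The summed coverage per count, a measure of how much of ITS1 a counted fragment covers, was 62.4 nt in npl3∆ and 63.7 nt in wild type. Counts and coverage of ITS1 thus stood in nearly the same proportion in both libraries.

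**Figure D1:**
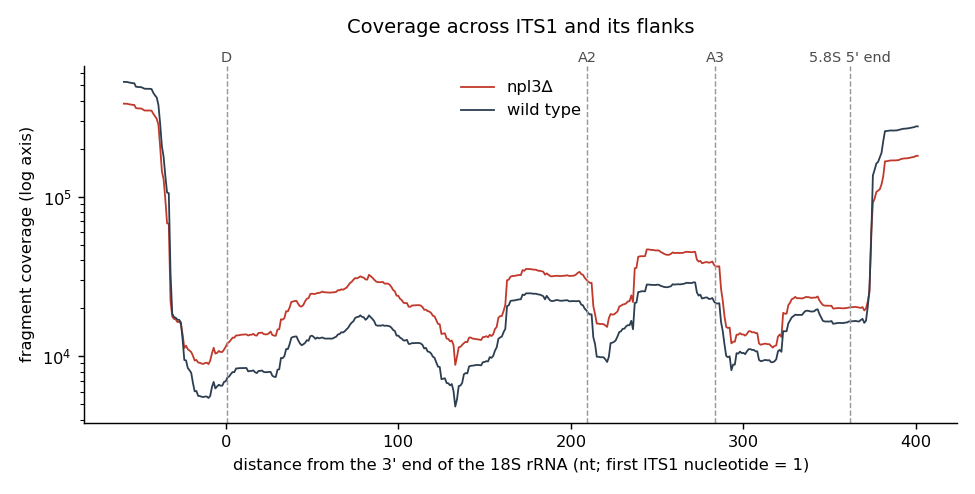
Fragment coverage (log axis) at each nucleotide of ITS1 and its flanks against the distance from the 3' end of the 18S rRNA in nt, for npl3∆ (red) and wild type (dark blue); dashed lines mark site D, the middles of the listed A2 and A3 positions, and the 5.8S 5' end. Within ITS1 the npl3∆ line runs above the wild type line at every nucleotide; the deepest trough lies at nucleotide 133 in both lines.

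The mean coverage of ITS1 was 24193 fragments per nucleotide in npl3∆ and 15540 in wild type, a ratio of 1.56 (1.53 to 1.59). Coverage ranged between 8812 and 46740 in npl3∆ and between 4829 and 29060 in wild type. Every nucleotide of ITS1 was higher in npl3∆, against 44.5% of the nucleotides of the whole 35S rRNA. Of the nucleotides of ITS1, 219 were at least 1.5-fold higher in npl3∆ (60.7%), against 11.8% of the 35S rRNA, and 0 were at least 2-fold higher. The other spacers also had such nucleotides. In the 5' ETS, 78.6% of the nucleotides were higher in npl3∆, 31.4% were at least 1.5-fold higher and 72 nucleotides at least 2-fold. In ITS2, 61.2% were higher, 33.2% were at least 1.5-fold higher and 61 nucleotides at least 2-fold. Neighbouring nucleotides share fragments, so that these are not independent observations. This picture depends on the denominator. When coverage was divided by the non-rRNA counts, themselves 1.39-fold higher in npl3∆, 285 nucleotides of ITS1 were higher in npl3∆. Of these, 0 were at least 1.5-fold higher. The share over the whole 35S rRNA was not calculated with this denominator, so that these counts have no background beside them.

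The shape of the profile was alike in both libraries in most places. Across the nucleotides of ITS1, the coverage of npl3∆ and wild type had a Pearson r of 0.95 and a Spearman rho of 0.94, given as a description since the points share fragments and base composition. Coverage in ITS1 formed humps separated by troughs. The deepest trough was at nucleotide 133 in both libraries, with 8812 fragments in npl3∆ and 4829 in wild type, and a further trough lay at nucleotide 221, directly after A2, with 15255 in npl3∆ and 9194 in wild type. The third trough lay at different places, at nucleotide 317 in npl3∆ with 11318 fragments and at nucleotide 293 in wild type with 8165. The hump before the first trough peaked at nucleotide 83 in npl3∆ with 32390 and at nucleotide 78 in wild type with 18035. The highest hump was within A2-A3, where coverage peaked at nucleotide 244 in npl3∆ with 46740 and at nucleotide 271 in wild type with 29060.

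The ends of ITS1 themselves were not marked by a step of coverage. At the 18S side, the sharpest fall of coverage lay 33 nt inside the 18S rRNA in both libraries, to 22225 in npl3∆ and to 33105 in wild type. From there the last 30 nt of the 18S rRNA had spacer-like coverage, with a mean of 11113 in npl3∆ and 8220 in wild type. At the other side, the sharpest rise lay 12 nt inside the 5.8S rRNA in npl3∆ and 13 nt inside it in wild type. The first 10 nt of the 5.8S rRNA had a mean of 20132 in npl3∆ and 16620 in wild type. The levels within the outermost nucleotides of both mature rRNAs thus resembled those of the spacer, in npl3∆ as in wild type.

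The 3 segments of ITS1 differed in their ratio of npl3∆ to wild type. D-A2 had a mean coverage of 22633 in npl3∆ and 13885 in wild type, a ratio of 1.63 (1.60 to 1.66). A2-A3 had 34540 in npl3∆ and 21611 in wild type, a ratio of 1.60 (1.57 to 1.63). A3-5.8S had 18556 in npl3∆ and 14215 in wild type, a ratio of 1.31 (1.28 to 1.33). This ratio turned to 0.939 when divided by the non-rRNA counts, where D-A2 had 1.17 and A2-A3 had 1.15. Without the genes ATG26 and BDF1 in the non-rRNA counts, A3-5.8S had 1.11 and did not reverse. As deposited, the ratio of the last segment was thus close to that of the 5' ETS, which was 1.30 (1.27 to 1.34) by coverage, and lower than those of both segments before it by more than the counting error.

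**Figure D2:**
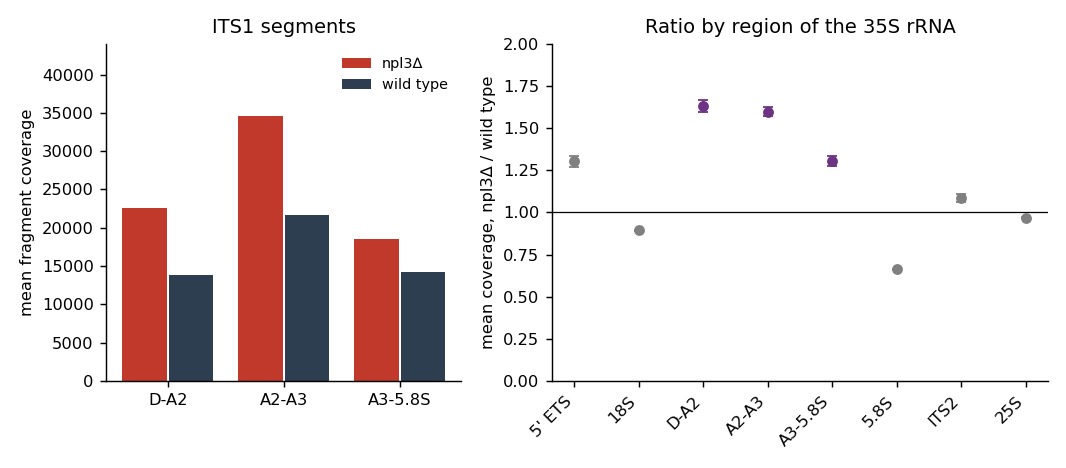
Left, mean fragment coverage of the 3 ITS1 segments as bars, npl3∆ left of wild type. Right, ratio of mean coverage of npl3∆ to wild type for the ITS1 segments (purple) and for other parts of the 35S rRNA (grey) in 5' to 3' order, with 95% intervals for counting error; D-A2 at 1.63 and A2-A3 at 1.60 lie above A3-5.8S at 1.31 and the 5' ETS at 1.30, and the 18S, 5.8S and 25S rRNAs lie below 1.

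The same can be read within each library, where the denominator plays no part. A3-5.8S had 0.820 of the coverage of D-A2 in npl3∆ and 1.02 of it in wild type. Relative to A2-A3, the coverage of A3-5.8S was 0.537 in npl3∆ and 0.658 in wild type. By contrast, A2-A3 had 1.53 times the coverage of D-A2 in npl3∆ and 1.56 times in wild type. The quotient of the first 2 segments thus changed by a factor of 0.981 between npl3∆ and wild type, while those with the last segment changed by 0.801 and 0.817.

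Per nucleotide, the log2 ratio of npl3∆ to wild type had a median of 0.79 in D-A2 (0.43 to 0.96), 0.68 in A2-A3 (0.48 to 0.80) and 0.34 in A3-5.8S (0.26 to 0.77). The number of nucleotides at least 1.5-fold higher in npl3∆ was 148 of 209 in D-A2 (70.8%) and 62 of 74 in A2-A3 (83.8%). In A3-5.8S it was 9 of 78 (11.5%), close to the share of 11.8% in the whole 35S rRNA. Only the beginning of the last segment reached the level of the segment before it.

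**Figure D3:**
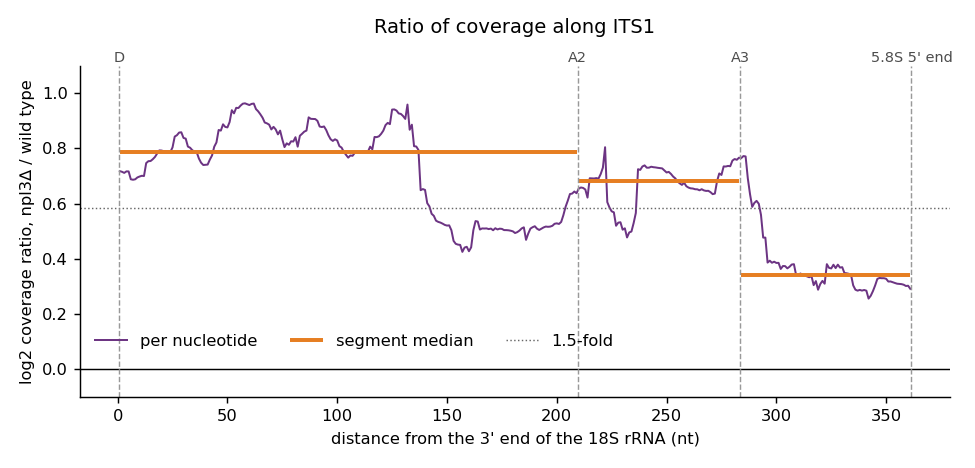
Log2 ratio of coverage, npl3∆ to wild type, at each ITS1 nucleotide against the distance from the 3' end of the 18S rRNA in nt, with the median of each segment (orange) and the 1.5-fold line (dotted). The ratio is highest before nucleotide 133, drops there, is higher again around A2-A3 and drops once more after A3, with segment medians of 0.79, 0.68 and 0.34.

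In D-A2 the highest ratio was at nucleotide 58, with 25125 fragments in npl3∆ and 12885 in wild type (log2 ratio 0.96), and the lowest was at nucleotide 157, with 15240 in npl3∆ and 11350 in wild type (0.43). In A2-A3 the highest was at nucleotide 222 with 17310 in npl3∆ and 9912 in wild type (0.80), in the trough after A2, and the lowest was at nucleotide 232 with 21420 in npl3∆ and 15385 in wild type (0.48). In A3-5.8S the highest was at nucleotide 285 with 36510 in npl3∆ and 21375 in wild type (0.77), just before the fall of coverage at A3. The lowest ratio of all ITS1 was at nucleotide 342, near the 5.8S rRNA, with 23325 in npl3∆ and 19535 in wild type (0.26).

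D-A2 was not uniform. When ITS1 was divided into 19 windows of 19 nt, the 7 windows up to nucleotide 133 had ratios between 1.65 and 1.86, and the 4 windows from nucleotide 134 to 209 had ratios between 1.40 and 1.52. The window from nucleotide 58 to 76 had the highest ratio, with a mean coverage of 26903 in npl3∆ and 14427 in wild type (1.86, 1.83 to 1.90). The change from higher to lower ratios lay at the deepest trough and not at a listed site. In the 4 windows from nucleotide 210 to 285 the ratio was between 1.56 and 1.63. The window from nucleotide 286 to 304, which spans the fall at A3, had an intermediate ratio of 1.44 (1.40 to 1.47), and in the last 3 windows, from nucleotide 305 to the end of ITS1, it was between 1.24 and 1.27. The second stretch of D-A2 thus had lower ratios than A2-A3, although both segments had almost the same ratio as a whole.

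Fragments that span a site come from molecules that were not cut there. Averaged over the 8 nt at each site, coverage was 11720 in npl3∆ and 7175 in wild type at site D, a ratio of 1.63 (1.59 to 1.68). At A2 the ratio was 1.56 (1.54 to 1.59) and at A3 it was 1.69 (1.66 to 1.72). At the 5.8S 5' end it was 1.23 (1.20 to 1.25), with 20187 in npl3∆ and 16429 in wild type, so that the end of ITS1 next to the 5.8S rRNA had the lowest ratio of these sites. At A2 and A3, all but the last nucleotide of the window lie before the sharpest fall of coverage, which followed nucleotides 212 and 286. Coverage there also holds fragments that end at the fall or elsewhere inside the window. The windows therefore do not measure uncut molecules alone, and the ratios at A2 and A3 are mainly those of the coverage before the fall.

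Coverage changed sharply between a few neighbouring nucleotides, and the 3 largest falls and the 3 largest rises in relation to their level lay at the same positions in both libraries. The largest fall in relation to its level followed nucleotide 212 (chrXII:455721), at A2. There coverage fell by 28.5% in npl3∆ from one nucleotide to the next, with 28845 before and 20620 after. In wild type it fell by 28.2%, with 18295 before and 13130 after. The fall at A2 thus had almost the same relative size in both libraries.

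The second largest fall in relation to its level followed nucleotide 286 (chrXII:455647), at A3. Coverage fell by 27.7% in npl3∆, with 36645 before and 26505 after this step. In wild type it fell by 23.6%, with 21475 before and 16410 after. In absolute coverage, this was the largest fall in npl3∆, and that at A2 was the largest in wild type. The falls lay 74 nt apart, each 3 nt downstream of the limit taken from the listed positions and within those positions. The next largest in absolute coverage followed nucleotide 272 in both libraries, where coverage fell by 10.6% in npl3∆ and fell by 13.3% in wild type.

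The falls at A2 and A3 both came after the third letter of AACACA, the capitals in the windows printed above for these sites. A search of the transcribed strand of the 35S rRNA found these letters 2 times, both in ITS1 and both at these falls. Of all windows of the length of ITS1 in the 35S rRNA, 6.62% contained them. That share follows from these 2 places alone and is no independent background. The opposite strand had them 1 time. The letters were looked for after the falls had been seen, and the match is a description of both places.

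**Figure D4:**
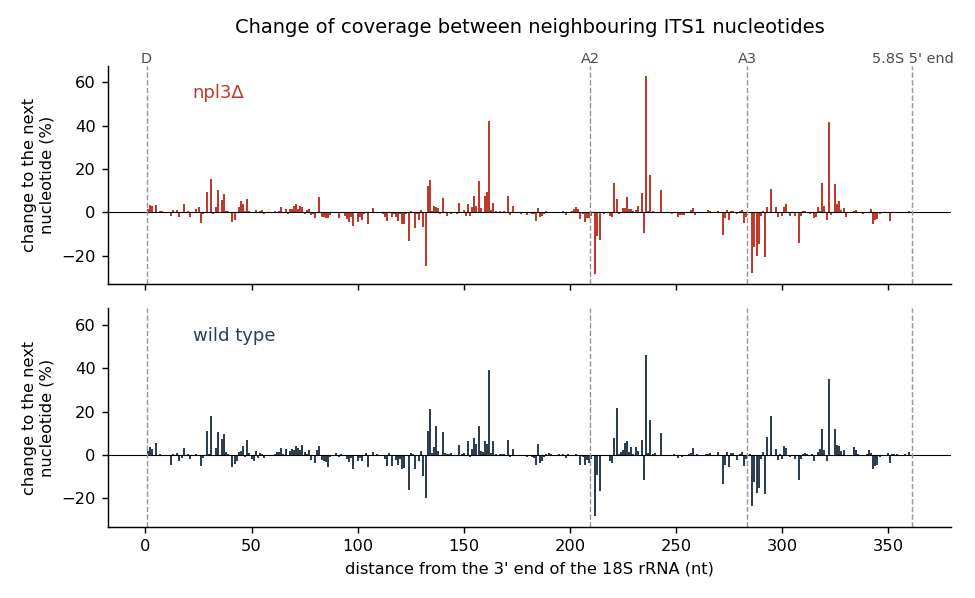
Change of coverage from each ITS1 nucleotide to the next, in percent of the coverage before, against the distance from the 3' end of the 18S rRNA in nt, with npl3∆ above and wild type below. Both panels have their deepest falls after nucleotides 212 and 286 and their highest rises after nucleotides 162, 236 and 322.

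Coverage went on falling for several nucleotides after each step, and the libraries differed in what remained. Comparing nucleotide 286 with the nucleotide 8 nt further downstream, 33.6% of the coverage remained at A3 in npl3∆ (32.9% to 34.3%), with 36645 before and 12318 after. In wild type 41.2% remained (40.2% to 42.2%), with 21475 before and 8851 after. The remaining share in npl3∆ was 0.816 times that in wild type (0.790 to 0.842, a normal approximation on the log scale), and the coverage lost across A3, 24327 in npl3∆ and 12625 in wild type, differed 1.93-fold. At A2, the share that remained after 8 nt was 54.0% in npl3∆ and 52.1% in wild type, and the coverage lost, 13270 in npl3∆ and 8755 in wild type, differed 1.52-fold. The window of 8 nt was chosen after the steps had been seen. With 1 nt the remaining share at A3 was 0.947 times that of wild type and with 15 nt it was 0.765 times, whereas at A2 the direction changed with the window, to 0.996 with 1 nt and 0.909 with 15 nt.

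The log2 ratio of npl3∆ to wild type was 0.77 at nucleotide 286, the last before the fall at A3, and the median of A3-5.8S, which includes this nucleotide, was 0.34. At nucleotide 212, the last before the fall at A2, it was 0.66, and the median of A2-A3 was 0.68. The intervals of the remaining shares treat coverage before and after a step as independent although fragments may cover both.

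Rises of coverage were also shared. The largest followed nucleotide 236 inside A2-A3, by 63.0% in npl3∆, with 21830 before and 35590 after, and by 46.0% in wild type, with 14745 before and 21535 after. The second followed nucleotide 162 in D-A2, by 42.3% in npl3∆ and 39.0% in wild type. A rise after nucleotide 322, in A3-5.8S, was 41.7% in npl3∆ and 34.9% in wild type. In absolute coverage it was the third largest in wild type, whereas in npl3∆ the rise after nucleotide 238, by 17.3%, took the third place. None of these rises lies at a listed site, and all of the 3 shared ones were larger in npl3∆.

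The genes whose products process or degrade ITS1 were described from a list of 41 genes. Their counts were scaled by all counts that are not of rRNA, and log2 ratios were calculated with a pseudocount of 0.5. Of the 41 genes, 2 were at least 1.5-fold higher in npl3∆ (4.88%) and 2 at least 1.5-fold lower, against 16.3% of 6118 genes that were higher and 12.1% that were lower. The median log2 ratio of the list was -0.23 and that of all genes 0.01. ATG26 alone held 34.5% of the scaling counts in npl3∆ and 23.5% in wild type. Without ATG26 and BDF1 in the sum, the median was 0.01 for the list and 0.25 for all genes, a shift that is the same for every gene by construction. FCF1 and PAP2 were then also at least 1.5-fold higher while RCL1 was no longer 1.5-fold lower. With this scaling, 26.5% of all genes were at least 1.5-fold higher and 6.77% at least 1.5-fold lower.

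**Figure D5:**
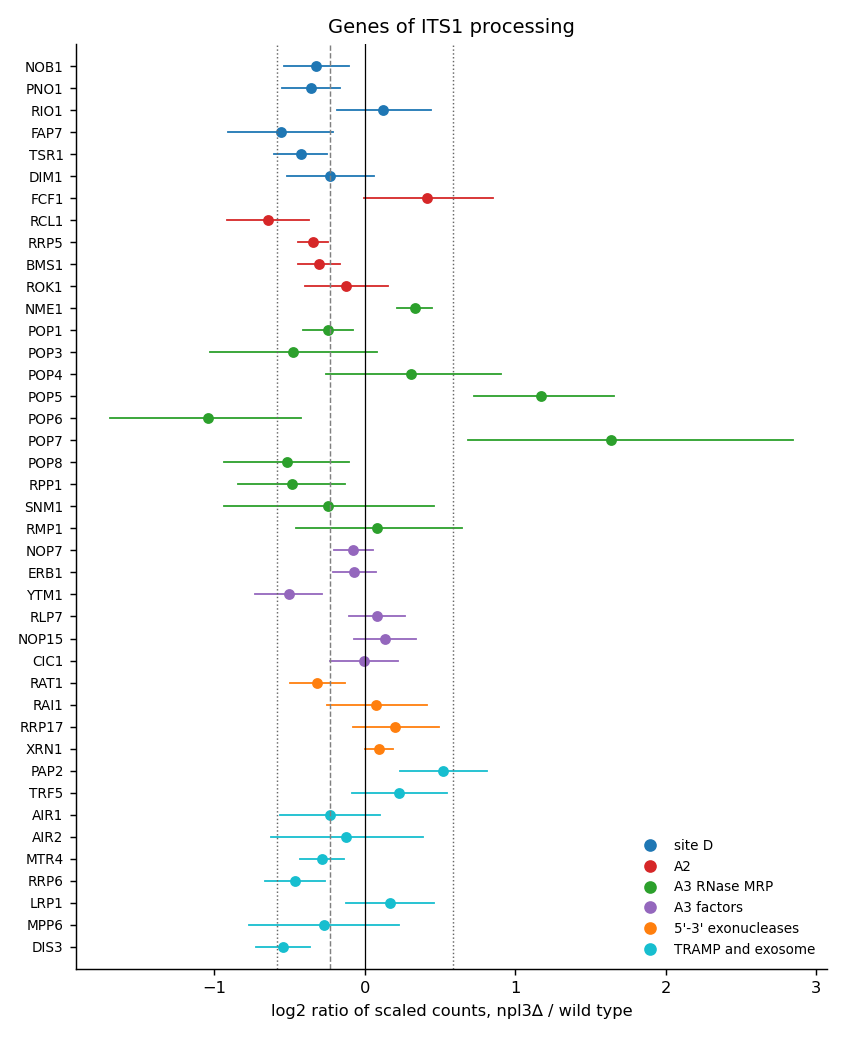
Log2 ratio of scaled counts, npl3∆ to wild type, for the 41 genes of ITS1 processing in 6 groups (colours), with 95% intervals for counting error; dotted lines mark 1.5-fold and the dashed line the list median of -0.23. POP5 and POP7 lie above and RCL1 and POP6 below the 1.5-fold lines.

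All listed genes past 1.5-fold except RCL1 encode small protein subunits shared by RNase MRP, which cuts A3, and RNase P. These 3 genes had few counts. POP7 had 45 counts in npl3∆ and 10 in wild type, a log2 ratio of 1.64 (scaled ratio 3.24, 1.61 to 7.20). POP5 had 167 counts in npl3∆ and 53 in wild type, a log2 ratio of 1.17 (2.27, 1.65 to 3.15). POP5 lies on chromosome I, where the median log2 ratio of 84 genes was 0.98 above that of the other chromosomes, and the part of this shift in its value was not tested. POP6 had 37 counts in npl3∆ and 55 in wild type, a log2 ratio of -1.04 (0.484, 0.310 to 0.747). The 11 genes of RNase MRP thus spread in both directions around a median log2 ratio of -0.24. Of them, 18.2% were at least 1.5-fold higher and 9.09% at least 1.5-fold lower, near the shares of all genes, 16.3% and 12.1%.

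The subunits that belong to RNase MRP alone were within 1.5-fold. NME1, the RNA of the enzyme, had 1624 counts in npl3∆ and 928 in wild type, a log2 ratio of 0.33 (scaled ratio 1.26, 1.16 to 1.37). SNM1 had 40 counts in npl3∆ and 34 in wild type (-0.24), and RMP1 had 71 in npl3∆ and 48 in wild type (0.08). The intervals of both, 0.522 to 1.38 and 0.727 to 1.57, include 1.

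Of the 5 genes for cleavage at A2, RCL1, which encodes a partner of the GTPase Bms1, had 211 counts in npl3∆ and 237 in wild type, a log2 ratio of -0.64 (scaled ratio 0.640, 0.529 to 0.774). Without ATG26 and BDF1 in the scaling it was -0.40 and no longer past 1.5-fold. FCF1, which encodes Utp24, had 134 counts in npl3∆ and 72 in wild type, a log2 ratio of 0.42 (1.34, 0.998 to 1.81), and without ATG26 and BDF1 it was 0.66 and past 1.5-fold. RRP5, needed for A2 and A3 cleavage, had 1717 counts in npl3∆ and 1564 in wild type (-0.34). NOB1, for the nuclease at site D, had 375 counts in npl3∆ and 337 in wild type (-0.32), and all 6 genes of site D were within 1.5-fold. The same held for the 6 factors of the pre-60S particle that are needed for trimming after A3, such as NOP7 and ERB1, whose median log2 ratio was -0.04.

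The genes of ITS1 trimming and decay were all within 1.5-fold with the scaling by all counts that are not of rRNA. Among the 5'-3' exonucleases, RAT1 had 538 counts in npl3∆ and 481 in wild type (-0.31), XRN1 had 2263 in npl3∆ and 1524 in wild type (0.09), and RRP17 had 266 in npl3∆ and 166 in wild type (0.20). RAI1, which encodes the partner of Rat1, had a log2 ratio of 0.08. Both poly(A) polymerases of TRAMP had positive values. PAP2, which encodes Trf4, had 302 counts in npl3∆ and 151 in wild type (0.52), and TRF5 had 222 in npl3∆ and 136 in wild type (0.23). The interval of the scaled ratio of TRF5 (0.944 to 1.46) includes 1, and that of PAP2 (1.18 to 1.76) does not. Without ATG26 and BDF1 in the scaling, PAP2 was at 0.76 and past 1.5-fold. The other TRAMP subunits and the exosome nuclease RRP6 had values of -0.23 for AIR1, -0.12 for AIR2, -0.28 for the helicase MTR4 and -0.46 for RRP6. The intervals of the scaled ratios of AIR1 (0.677 to 1.07) and AIR2 (0.649 to 1.31) include 1. Those of MTR4 (0.742 to 0.909) and RRP6 (0.632 to 0.834) do not. Without ATG26 and BDF1 in the scaling, AIR1 was at 0.01, AIR2 at 0.12, MTR4 at -0.04 and RRP6 at -0.22. These are levels of mRNA and say nothing about the amounts of the proteins.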

How the data were processed

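Total RNA of 1 npl3∆ and 1 wild type culture was made into stranded libraries and sequenced by the authors, who mapped the reads with HISAT2 to sacCer3 (R64) and counted them per feature with featureCounts, with versions not given in the sources used here. The authors deposited raw counts without normalization. They also deposited a signal, the coverage by fragments per nucleotide along the 35S rRNA with flanks of 50 nt, computed with deeptools2 without scaling between libraries. Row 1 was taken as the transcript's 3' end, because the steps of coverage at the mature rRNAs fit only this direction. No column of values was left out.

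Ratios were formed from values as deposited, and the mean of both rDNA copies was used where parts of the rRNA are set against each other. For intervals of coverage ratios, mean coverage was treated as a number of fragments. Some deposited values are not whole numbers, such as 9911.5 in wild type at nucleotide 222, and how these arose is not known here. Steps are changes between neighbouring nucleotides, and the largest falls were sought within 10 nt of the A2 and A3 limits. Troughs and humps needed a prominence of 0.5 on the log2 scale. Genes needed at least 10 counts in both libraries together. Counts up to 3 lie at the floor, and no fold is given for NPL3 and MFA2. Sequences and coordinates came from RefSeq for the same build. The members and lists were chosen with earlier results of these data known. Named by rule were NPL3, MFA2, MF(ALPHA)1, a fixed set of listed processing genes and each listed gene past 1.5-fold, the extreme nucleotides of each segment, and the 3 largest falls and rises per library. The alternatives changed the denominator, rDNA copy, segment limits, summary, smoothing, scaling, pseudocount and minimum count. The scripts were tested on simulated data and used matplotlib 3.10.9, pandas 2.3.3, scipy 1.17.1, numpy 2.4.6 and Python 3.11.15.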

Additional observations from a re-analysis of the deposited data

How the results depend on the processing

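No paired analysis was possible because there was 1 library per genotype, and for the same reason no replicate could be left out. Among 160 values under other settings, 98 stayed within the counting error or 1.5 times the count, 59 moved and 3 reversed. A gene counted as reversed only where its log2 ratio was past 1.5-fold at first. The sign changes of AIR1 and AIR2 without ATG26 and BDF1 are therefore not among the 3. The largest moves came from the denominator. Divided by the counts of the 18S rRNA, the ratios were 1.77 for ITS1 counts, 1.73 for ITS1 coverage, 1.82 for D-A2, 1.78 for A2-A3 and 1.45 for A3-5.8S. Divided by the 25S rRNA counts they were 1.63, 1.60, 1.67, 1.64 and 1.34 in the same order, and divided by the summed counts of all features 1.67, 1.63, 1.71, 1.68 and 1.37. Divided by features other than rRNA they were 1.14, 1.12, 1.17, 1.15 and, reversed, 0.939 for A3-5.8S, and without ATG26 and BDF1 1.35, 1.32, 1.38, 1.36 and 1.11. These denominators move all segments by one factor and leave their order as it is. ITS1 counts had a ratio of 1.61 with copy 1 only and 1.57 with copy 2 only. The counting intervals of both copies did not overlap, although their sequences are identical. With medians in place of means, D-A2 had 1.72, A2-A3 1.66 and A3-5.8S 1.25. A3-5.8S had 1.33 with limits shifted 4 nt towards the 18S rRNA, 1.28 with limits shifted 4 nt towards the 5.8S rRNA and 1.26 with 10 nt left out at both ends, so that it remained the lowest of the 3 segments under each setting. With limits at the falls, chosen after seeing the data, the segments had 1.63, 1.60 and 1.28. The number of ITS1 nucleotides at least 1.5-fold higher was 0 when divided by features other than rRNA, 293 per 18S rRNA counts and 221 with a mean over 11 nt. The share that remained at A2 reversed to 0.996 after 1 nt and 0.909 after 15 nt. Without ATG26 and BDF1 in the scaling, 4 of 41 listed genes were higher (POP5, POP7, FCF1 and PAP2) and 1 lower (POP6). Of all genes, 26.5% were then higher and 6.77% lower. With at least 100 counts, 1 of 38 listed genes was higher (POP5) and 1 lower (RCL1), against 11.2% and 10.3% of all genes. The cause of these moves was not tested. Depth limits mainly POP5, POP6, POP7 and other genes with few counts, and single libraries limit every ratio.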
